A study of Mus musculus with 12 samples.

Results

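Untreated Anxa2 knockdown microglia were compared with control microglia taken through oxygen-glucose deprivation and reoxygenation (OGD/R), a pair of groups that differs in cell line and in treatment at once. The pair was chosen by the sample titles, and it holds 6 of the 12 libraries of the study, 3 titled shAnxa2-CTRL and 3 titled shCtrl-OGDR. All genes with at least 0.5 CPM (read counts scaled to the size of the library) in at least 3 of the 12 libraries were tested, 11626 of the 21834 genes in the deposited table. The cells were BV2, an immortalized line of mouse microglia, made to express a short hairpin RNA that is a control (shCtrl) or targets Anxa2 (shAnxa2). RNA-seq of untreated (CTRL) and OGD/R cells of both lines was done to follow inflammatory genes with and without annexin A2. The shAnxa2-CTRL libraries came from BV2 cells with the Anxa2 shRNA that were not treated. The shCtrl-OGDR libraries came from BV2 cells with the control shRNA after 4 h without glucose at 1% oxygen and, per the labels, 12 h of reoxygenation in normal medium (the study's methods give a longer reoxygenation for these cells). Both lines had been infected with a pLKO.1 lentivirus and selected with puromycin. Each shRNA is represented by 1 stable line, and 1 shRNA sequence targeted Anxa2, so the shRNA, the line and its history cannot be told apart. Line and treatment change together in this pair, so neither can be given its own share of a difference, and no batch is named that could be separated from the groups. The labels do not say whether replicates were separate cultures, though the study's methods call them biological replicates. A p-value therefore sets a difference against the spread between replicate libraries, estimated over all 12.

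The titles carry the grouping, because a second label of the same samples goes against them: it calls every OGDR sample an Anxa2 knockdown and every CTRL sample WT. Anxa2 counts followed the line in the titles, as given below. The treatment targets no single gene that could check the titles in the same way. Of 5239 genes that differed between the OGDR and CTRL libraries in both lines, 5165 (98.6%) did so in opposite directions, while 74 shared a direction. A reversed response and an exchange of treatment between the libraries of 1 line cannot be told apart in these files, so every value below belongs to libraries as titled. Total counts ran from 20402165 to 25242304 in shAnxa2-CTRL and from 19521877 to 26032961 in shCtrl-OGDR. Mitochondrial genes took 0.272% to 0.286% and 0.251% to 0.272% of the counts. The 12 microglia and macrophage markers were all expressed. They summed to 2080 to 2150 CPM in shAnxa2-CTRL and 2190 to 2380 CPM in shCtrl-OGDR. Of them 1 was called higher and 4 lower, beside 22.1% and 22% of all genes. Some added little to the sum in shAnxa2-CTRL and shCtrl-OGDR: Aif1 averaged 3.35 and 5.78 CPM, Cx3cr1 5.89 and 4.73, P2ry12 1.89 and 1.74, and Tmem119 5.66 and 1.87. Aqp4, Snap25, Syt1, Mog, Col3a1 and Dcn, which define astrocytes, neurons, oligodendrocytes and fibroblasts, had no counts in the 6 libraries, and the 5 markers of each of these cell types summed to at most 6.71 CPM. Kdr, a VEGF receptor of endothelium, read 119 CPM in shAnxa2-CTRL against 64.6 CPM in shCtrl-OGDR, but the other 4 endothelial markers were each below 1 CPM on average in both groups (2 of the 5 were called higher, Kdr and Cdh5). The part of these markers in the results was not tested.

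Microglia are the resident macrophages of the brain. They clear debris and prune synapses with the help of complement C1q, and on injury they release cytokines, chemokines and nitric oxide under control of the transcription factor NF-κB. Annexin A2 is a calcium-dependent protein that binds membrane phospholipids, and with its partner S100A10 it holds plasminogen and its activator at the cell surface. Restoring oxygen and glucose after deprivation imitates reperfusion after a stroke in culture.

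The pair differed at many genes by small amounts. With edgeR's quasi-likelihood test and Benjamini-Hochberg adjustment over all 11626 genes, 5126 genes (44.1%) had an adjusted p under 0.05, of which 2566 (22.1%) were higher and 2560 (22%) lower in shAnxa2-CTRL. The median size of the log2 difference over all genes was 0.184, and 3 in 4 genes differed by less than 0.346. Only 175 genes (1.51%) were called and at least 2-fold higher, and 174 (1.5%) at least 2-fold lower. For 8607 genes (74%) the 95% interval of the difference lay within 1.5-fold in either direction. Libraries of one group and those of the other did not overlap at 6074 genes (52.2%). The shares given here are the background for the counts of each gene list below. Replicates varied little, with a common biological coefficient of variation of 5.36%. The 4 other comparisons that change line or treatment alone called 55% to 67.9% of the genes, with median sizes of 0.24 to 0.35 against 0.18 here. These share libraries with the present pair and are given only side by side.

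**Figure D1:**
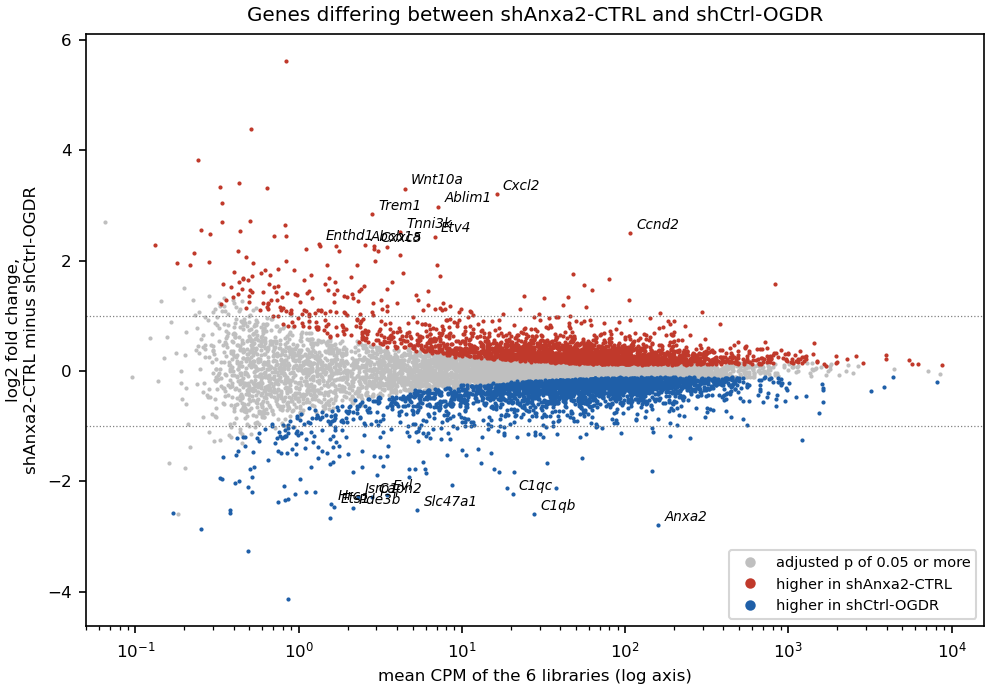
Each point is 1 of the 11626 genes, placed by its mean CPM over the 6 libraries (x axis, log) and its log2 fold change, shAnxa2-CTRL minus shCtrl-OGDR (y axis). Red and blue points passed an adjusted p of 0.05, dotted lines mark 2-fold, and the 10 named genes per direction include Cxcl2 and Wnt10a at the top and Anxa2 and C1qb at the bottom.

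Anxa2 was the most strongly reduced of the 10 genes named in that direction. Its level was 35.0, 44.4 and 41.8 CPM in the 3 shAnxa2-CTRL libraries and 251, 295 and 291 CPM in the 3 shCtrl-OGDR libraries. The groups stood far apart, with every knockdown library below every control library. The log2 difference was -2.79 (95% interval -2.94 to -2.64, adjusted p = 2.74e-19), a 6.9-fold reduction of the transcript (mm39, chromosome 9, 69360902 to 69399077, plus strand). An exact permutation test of the 3 against 3 values gave p = 0.1 (two-sided), the smallest that 3 against 3 libraries allow. The untreated control line, outside this pair, averaged 172 CPM, so part of the gap to shCtrl-OGDR lay between the shCtrl-OGDR and shCtrl-CTRL libraries (log2 0.70).

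Other annexins differed by much less and not all in the same direction. Anxa1, Anxa4, Anxa5 and Anxa6, calcium-dependent membrane binders like annexin A2, fell by 0.35, 0.39, 0.35 and 0.39 on the log2 scale, Anxa7 rose by 0.31, and Anxa3 and Anxa11 were not called. Of 13 tested genes of annexins and S100 partners, Anxa2 included, 7 fell, 2 rose, 4 were not called and the median log2 difference was -0.35, beside 22% lower, 22.1% higher and a median of 0.005 over all genes. Ahnak, a giant scaffold protein that binds the annexin A2 and S100A10 complex, read 151, 147 and 152 CPM in shAnxa2-CTRL and 343, 313 and 390 CPM in shCtrl-OGDR. All 3 knockdown libraries sat at less than the lowest control library, a log2 difference of -1.22 (SE 0.07, adjusted p = 4.6e-12). S100a11, a calcium-binding partner of annexins A1 and A2, fell by 0.65 on the log2 scale. S100a10 itself, the partner of annexin A2, differed by 0.04 and was not called. Among the genes of plasminogen activation, of which 5 could be tested, 3 rose and 1 fell. Their median of 0.23 was 0.15 without replicate 1 and 0.40 without replicate 2 of shAnxa2-CTRL. Plaur, the urokinase receptor, rose by 0.41, and Plgrkt, a plasminogen receptor, read -0.20, a call that was lost in some alternatives.

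All 3 chains of complement C1q fell more than 4-fold. C1qa, C1qb and C1qc encode the chains of C1q, the protein that starts the classical complement pathway, and lie side by side on the minus strand of chromosome 4 (mm39, 136623228 to 136626114, 136607440 to 136613498 and 136617115 to 136620376). The promoters of C1qb and C1qc are shown because the genes of this cluster differed together. Each line holds the 250 bases before the RefSeq start site in GRCm38.p6 (chr4:136886201-136886450 and chr4:136892915-136893164, both minus strand), 5′ to 3′, with capitals at the letters GAGGAA, a core to which PU.1, the master factor of microglia, binds, read on either strand.
C1qb: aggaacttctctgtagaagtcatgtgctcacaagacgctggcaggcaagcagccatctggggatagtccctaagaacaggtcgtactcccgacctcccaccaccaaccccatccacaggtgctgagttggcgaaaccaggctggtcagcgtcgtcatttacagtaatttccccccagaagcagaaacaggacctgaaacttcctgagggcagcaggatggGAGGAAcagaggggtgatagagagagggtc
C1qc: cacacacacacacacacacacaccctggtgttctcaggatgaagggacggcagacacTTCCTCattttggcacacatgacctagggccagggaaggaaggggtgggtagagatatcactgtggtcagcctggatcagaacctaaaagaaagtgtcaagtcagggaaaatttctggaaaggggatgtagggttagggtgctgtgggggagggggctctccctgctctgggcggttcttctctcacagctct
The match lay 30 to 25 bases before the start site of C1qb on the sense strand, and 193 to 188 bases before that of C1qc on the antisense strand. These letters occurred in 23.3% of 32851 promoters of this length, so a match is common and is given as a description.

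C1qb had 8.70, 6.88 and 8.10 CPM in shAnxa2-CTRL and 43.0, 52.5 and 47.3 CPM in shCtrl-OGDR. Every knockdown library was far below every control library, a 6.02-fold reduction (log2 -2.59, SE 0.10, adjusted p = 1.29e-15). C1qc read 6.36, 7.51 and 7.63 CPM against 32.9, 37.4 and 31.1 CPM (log2 -2.24, SE 0.10, adjusted p = 3.34e-14). C1qa rested on few reads, with 1, 4 and 16 counts in shAnxa2-CTRL and 32, 42 and 22 counts in shCtrl-OGDR, and its log2 difference of -2.08 had a wide interval of -2.99 to -1.17. The 3 chains were also low in the shAnxa2-OGDR libraries, where C1qb averaged 10.3 CPM against 49.4 CPM in shCtrl-CTRL. Of the 16 complement genes tested, 6 fell (37.5%, beside 22% of all genes) and 3 rose (18.8%, beside 22.1%). Of the 16, 5 were at least 2-fold lower, beside 1.5% of all genes. The median of -0.23 was -0.42 without replicate 1 of shAnxa2-CTRL and -0.12 without replicate 3 of shCtrl-OGDR. The complement receptor subunit Itgax had 9.63, 9.38 and 9.06 CPM in shAnxa2-CTRL and 19.5, 19.4 and 19.4 CPM in shCtrl-OGDR, again apart (log2 -1.06, adjusted p = 1.6e-09). C3, the central component of the cascade, rose by 0.32, and Cfp, the stabilizer of the alternative pathway known as properdin, by 0.51.

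**Figure D2:**
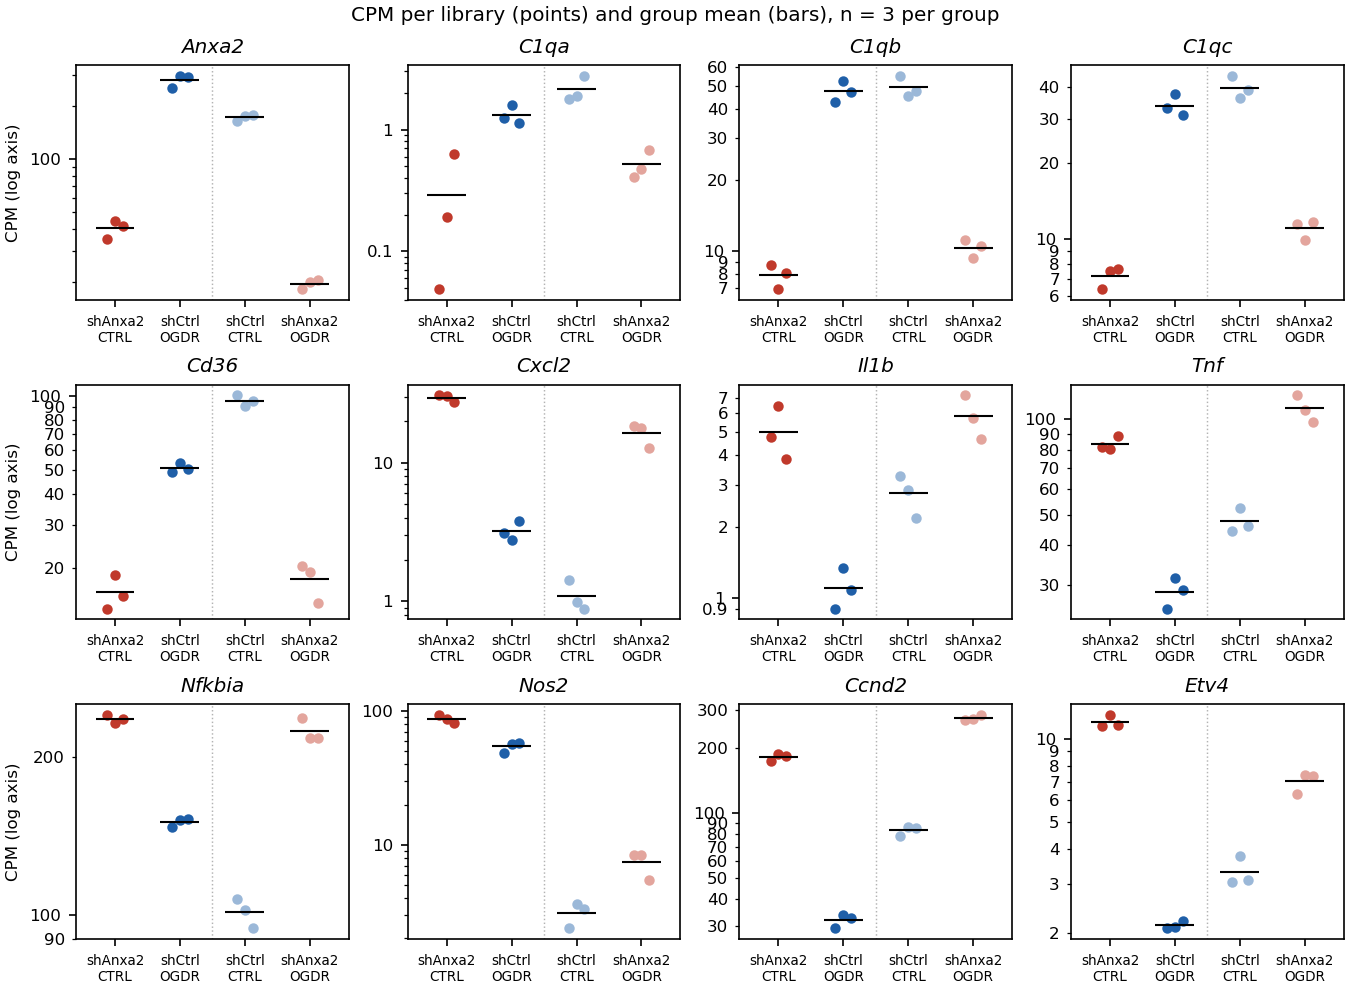
CPM of 12 genes in every library (y axes, log scales that differ between panels), with shAnxa2-CTRL and shCtrl-OGDR left of the dotted line and the other 2 groups right of it. Points are libraries and bars are means of 3. The 3 libraries of shAnxa2-CTRL and the 3 of shCtrl-OGDR do not overlap in any panel, which held for 52.2% of all genes. Some of the panels show genes that were named only if their libraries did not overlap.

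Microglial state genes split. Among the 16 tested genes of homeostatic microglia 5 rose (31.2%) and 7 fell (43.8%), beside 22.1% and 22% of all genes. Their median of -0.01 changed sign with the library left out (-0.078 without replicate 1 of shCtrl-OGDR, 0.051 without replicate 1 of shAnxa2-CTRL). Tmem119, a surface marker of resting microglia, had 5.82, 5.20 and 5.88 CPM in shAnxa2-CTRL and 1.41, 1.83 and 2.36 CPM in shCtrl-OGDR, a log2 difference of 1.62 (SE 0.16, adjusted p = 2.37e-08). Fcrls, an Fc receptor-like gene of microglia, was near 1 CPM at most, and its log2 difference of 1.44 lost its call without replicate 1 of shAnxa2-CTRL.

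Genes of disease-associated microglia, a state that takes up lipid and debris, were lower more often than higher. Of 24, 11 fell (45.8%) and 6 rose (25%), beside 22% and 22.1% of all genes, with a median of -0.09. The scavenger receptor Cd36 read 13.7, 18.9 and 15.5 CPM in shAnxa2-CTRL and 49.0, 53.3 and 50.4 CPM in shCtrl-OGDR. The 2 ranges were separated by more than 2-fold (log2 -1.67, SE 0.10, adjusted p = 2.69e-12). The growth factor Igf1 had 96.1, 94.0 and 91.8 CPM in shAnxa2-CTRL and 185, 215 and 202 CPM in shCtrl-OGDR (log2 -1.10, adjusted p = 1.83e-13). The lipid-handling genes under the nuclear receptors LXR and PPAR, some of them shared with that list, had the largest share of falls of all lists examined, 10 of 17 against 5 that rose (median -0.26). Besides Cd36 they included Fabp4, a fatty acid carrier, with 67.9, 56.2 and 60.3 CPM against 122, 101 and 121 CPM, and Apoe, the main lipoprotein of the brain, with 1086, 1063 and 1266 CPM against 2023, 1918 and 1855 CPM. The groups did not overlap for either gene, with log2 differences of -0.90 for Fabp4 and -0.76 for Apoe. Lysosomal genes fell at 16 of 34 (47.1%) and rose at 3 (8.8%) by small steps, with a median of -0.08. Within 1.5-fold lay 29 of the 34 intervals (85.3%), beside 74% of all genes. Ctsc, a cathepsin that activates serine proteases, read 84.5, 87.9 and 89.1 CPM against 152, 152 and 144 CPM, and Tfeb, the master regulator of lysosome genes, 40.4, 36.0 and 39.8 CPM against 70.3, 62.8 and 67.4 CPM. Both were lower in every shAnxa2-CTRL library, by log2 -0.78 and -0.79. Ctsh, another cathepsin, fell by 0.65.

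Inflammatory genes under NF-κB were on balance higher in the untreated knockdown than in the control line after OGD/R. Of 45 tested NF-κB targets 26 rose (57.8%, beside 22.1% of all genes) and 8 fell (17.8%, beside 22%), with a median of 0.35. Only 5 fell without replicate 1 of shAnxa2-CTRL or replicate 2 of shCtrl-OGDR. At least 2-fold higher were 9 targets, beside 1.51% of all genes, and none was 2-fold lower. The chemokine Cxcl2, which attracts neutrophils, led them. Its promoter (GRCm38.p6, chr5:90903649-90903898, plus strand, RefSeq, 250 bases before the start site) is shown because it holds, in capitals, a match to the κB motif that NF-κB binds (GGGA, any base, then TTTCC).
Cxcl2: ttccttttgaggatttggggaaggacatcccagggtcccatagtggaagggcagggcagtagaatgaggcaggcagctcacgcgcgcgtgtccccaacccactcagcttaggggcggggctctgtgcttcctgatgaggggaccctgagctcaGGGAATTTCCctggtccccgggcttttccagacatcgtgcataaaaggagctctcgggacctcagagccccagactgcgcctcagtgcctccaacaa
The site lay 97 to 88 bases before the start, and 0.356% of 32851 promoters hold such a match on either strand. The same windows of C1qb, C1qc and Cxcl2 were searched on both strands for TGACTCA, bound by AP-1 (4.46% of promoters), and TATAAA, the TATA box (12.4%), with no match.

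Cxcl2 had 30.6, 30.1 and 27.5 CPM in shAnxa2-CTRL and 3.09, 2.79 and 3.79 CPM in shCtrl-OGDR. The lowest knockdown library was above the highest control library by over 7 times in CPM, and the fitted difference was 9.21-fold (log2 3.20, SE 0.14, adjusted p = 1.46e-14). The cytokine Tnf read 81.7, 80.6 and 88.6 CPM against 25.2, 31.5 and 29.0 CPM. It was 2.93-fold higher in shAnxa2-CTRL with no overlap of libraries (adjusted p = 2.36e-13). Il1b, the cytokine interleukin-1β, was a rare transcript at 4.79, 6.45 and 3.85 CPM against 0.900, 1.34 and 1.08 CPM (log2 2.17, SE 0.24, adjusted p = 1.31e-07). Saa3, an acute phase protein, had 80.3, 82.7 and 58.8 CPM in shAnxa2-CTRL and 24.2, 20.8 and 20.4 CPM in shCtrl-OGDR, again without overlap (log2 1.76, adjusted p = 5.27e-11). Nfkbia, the inhibitor IκBα that NF-κB induces as its own brake, showed 241, 233 and 237 CPM against 147, 152 and 153 CPM. Its groups were tight and separate (log2 0.65, SE 0.05, adjusted p = 3.51e-10). The subunits of NF-κB moved little: Rela differed by 0.04 (95% interval -0.09 to 0.18, adjusted p = 0.648), and Nfkb1, the precursor of p50, by -0.14 (adjusted p = 0.0202, lost in some alternatives). Relb, a subunit of the alternative pathway, fell by 0.34.

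**Figure D3:**
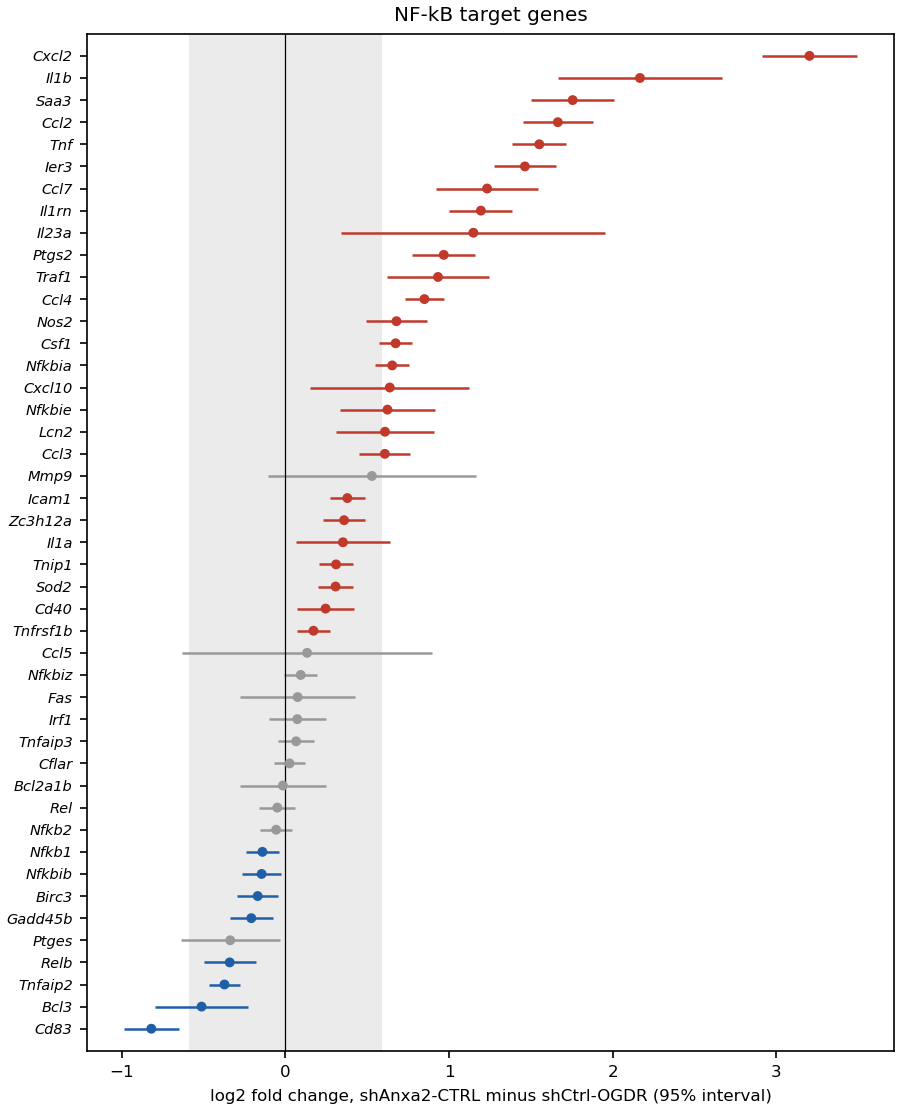
Log2 fold change (points) with 95% intervals (lines) of the 45 NF-κB target genes tested, shAnxa2-CTRL minus shCtrl-OGDR. Red genes rose, blue genes fell, gray genes were not called, and the shaded band marks 1.5-fold. Cxcl2 and Il1b lie at the top and Cd83 at the bottom.

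Genes that the study followed as markers of inflammation and cell death were read one by one. Nos2, the inducible nitric oxide synthase, had 93.8, 87.6 and 81.6 CPM in the untreated knockdown and 48.8, 57.2 and 58.2 CPM in the control line after OGD/R. All 3 knockdown libraries were higher, by 1.6-fold (log2 0.68, SE 0.09, adjusted p = 1.55e-06), while both groups stood far above shCtrl-CTRL at 3.11 CPM and shAnxa2-OGDR at 7.43 CPM. Ptgs2, the prostaglandin synthase COX2, read 44.6, 46.8 and 43.9 CPM against 19.8, 25.2 and 24.2 CPM (log2 0.97, SE 0.09, adjusted p = 1.19e-08). Mrc1, the mannose receptor CD206 of alternatively activated cells, was low and fell from 4.58, 5.76 and 5.38 CPM in shCtrl-OGDR to 2.93, 3.22 and 2.94 CPM in shAnxa2-CTRL (log2 -0.79, adjusted p = 0.000311). Arg1, the arginase of the same state, had 1 to 3 counts per library in shAnxa2-CTRL and 5 to 10 in shCtrl-OGDR, and Il6 had 7 to 10 and 2 to 9 counts, too few to be tested. Bax, a killer protein of the BCL2 family, had 57.9, 59.9 and 61.0 CPM against 76.6, 80.7 and 74.5 CPM, and the protective Bcl2 had 25.3, 25.6 and 25.6 CPM against 19.3, 19.2 and 19.7 CPM. Neither gene's libraries overlapped, and the log2 differences were -0.38 and 0.40 (adjusted p = 3.52e-06 and 0.000126). Within the list of nitric oxide, arginine and polyamine genes 6 of 14 rose (42.9%) and 3 fell (21.4%), with a median of 0.18. Over all genes these shares were 22.1% and 22%. Gch1, which makes the cofactor of nitric oxide synthases, read 47.1, 52.6 and 53.7 CPM against 27.0, 25.8 and 25.5 CPM, and Odc1, the first enzyme of polyamine synthesis, 247, 254 and 276 CPM against 131, 148 and 138 CPM. Both were higher in all 3 shAnxa2-CTRL libraries (log2 0.97 and 0.90, adjusted p = 3.31e-11 and 2.84e-12). In the list of prostaglandin and leukotriene synthesis 5 of 12 rose (3 without replicate 1 or 2 of shAnxa2-CTRL) and 1 fell, with a median of 0.09 that was 0.032 without replicate 3 of shAnxa2-CTRL. Ptgds, a prostaglandin D synthase, had 27, 24 and 26 counts in shAnxa2-CTRL and 4, 1 and 3 counts in shCtrl-OGDR (log2 3.31, SE 0.54, adjusted p = 2.26e-05), and Tbxas1, the thromboxane synthase, fell by 0.87.

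Across the BCL2 family and caspases, 8 of 21 rose (38.1%) and 6 fell (28.6%), beside 22.1% and 22% of all genes. Their median was 0.00. Bik, a sensitizer of cell death, rose by 0.86, and Bid, which links death receptors to mitochondria, by 0.53. Bbc3, the p53-induced killer PUMA, showed 23.1, 19.9 and 19.3 CPM in shAnxa2-CTRL against 34.5, 34.8 and 40.1 CPM in shCtrl-OGDR, clearly lower in each library (log2 -0.81, adjusted p = 8.27e-08). Targets of p53 rose at 8 of 22 (36.4%) and fell at 6 (27.3%). Their median of 0.07 was 0.002 without replicate 1 and 0.13 without replicate 3 of shAnxa2-CTRL. Plk3, a stress kinase, stood at 1.01 and Cdkn1a, the inhibitor p21, at 0.64.

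Growth control differed most at 1 cyclin. Ccnd2, cyclin D2, which drives cells into the cycle with CDK4 and CDK6, had 175, 187 and 183 CPM in shAnxa2-CTRL and 29.4, 33.9 and 32.8 CPM in shCtrl-OGDR. Its groups were separated more than 5-fold with little spread, and its difference of 5.68-fold (log2 2.50, SE 0.06) had an adjusted p of 3.7e-20 (mm39, chromosome 6, 127102125 to 127129156, minus strand). Cyclin D1, Ccnd1, rose by 0.65 from an average above 95 CPM in every library. Of 17 tested G1 cyclins and inhibitors 7 rose and 3 fell (median 0.10). Cdkn1c, the inhibitor p57, was near 1 CPM and lost its call of 1.15 without replicate 3 of shAnxa2-CTRL. Among 44 DNA replication genes 20 rose (45.5%) and 6 fell (13.6%) by small amounts, beside 22.1% and 22% of all genes. The median was 0.11, and 42 intervals lay within 1.5-fold (95.5%, beside 74% of all genes). Ccne2, cyclin E2, was the member with the greatest change, at 14.6, 16.3 and 15.5 CPM against 6.49, 8.44 and 7.22 CPM (log2 1.06, SE 0.11, adjusted p = 3.68e-08). Cdc6, which licenses origins, and Prim1, the primase, rose by 0.41 and 0.48. Mitosis genes did not follow one direction, with 8 of 33 higher (24.2%) and 6 lower (18.2%), near the shares of all genes. Only 3 were lower without replicate 3 of shCtrl-OGDR. All 33 intervals lay within 1.5-fold. Mki67, the proliferation marker, read 686, 618 and 626 CPM against 854, 794 and 897 CPM and fell by 0.40. Cenpe, a kinetochore motor, fell by 0.33 and Bub1b, a checkpoint kinase, by 0.30. These genes were named for the largest called differences of the list, and the members called higher differed by less.

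The list of ERK feedback regulators holds genes that limit the signal of the pathway and others, such as Etv4, that report on it. Of 12 tested, 9 were higher (75%) and 1 lower (8.3%), beside 22.1% and 22% of all genes. The median was 0.52. Etv4, an ETS factor that reports on ERK activity, read 11.2, 12.2 and 11.2 CPM in shAnxa2-CTRL and 2.07, 2.10 and 2.20 CPM in shCtrl-OGDR. The 6 values formed 2 narrow groups 5.41-fold apart (log2 2.44, SE 0.14, adjusted p = 1.51e-12). Dusp6, a phosphatase of ERK, had 206, 219 and 328 counts against 59, 86 and 96 counts (log2 1.72, SE 0.16, adjusted p = 8.81e-09). Ier3, an early response gene also counted among the NF-κB targets, had 98.1, 89.2 and 89.4 CPM against 29.0, 36.9 and 34.4 CPM (log2 1.46, adjusted p = 8.62e-12). Each of them was higher in all 3 shAnxa2-CTRL libraries. For Dusp6 the untreated control line stood higher still, at 18.1 CPM. The immediate early genes went both ways, 5 of 16 up and 6 down (median 0.02). Egr2 and Nr4a1, early transcription factors, fell by 1.54 and 0.64, and Fos, the AP-1 subunit, read 0.54, a call lost in some alternatives.

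Genes of ribosome assembly were higher at most members, and ribosomal proteins at fewer. Ribosome biogenesis had the highest share of rises among the lists, 31 of 36 genes (86.1%, beside 22.1% of all genes). None was lower, beside 22% of all genes, and the median was 0.34. Nop56, a core protein of the small nucleolar RNA particles, read 380, 347 and 384 CPM in shAnxa2-CTRL and 246, 253 and 247 CPM in shCtrl-OGDR, and Rrs1, a large-subunit assembly factor, 94.1, 95.1 and 97.3 CPM against 63.1, 63.3 and 66.6 CPM. All knockdown libraries were higher for both, by log2 0.58 and 0.57 (adjusted p = 2.5e-09 and 1.59e-08). Among cytosolic ribosomal proteins 36 of 81 rose, 8 fell and 37 were not called (median 0.14, with 4 lower without replicate 3 of shCtrl-OGDR), and among mitochondrial ones 33 of 77 rose, 5 fell and 39 were not called (median 0.14). Mrpl52, of the mitochondrial large subunit, rose by 0.80, from 24.3, 27.0 and 25.5 CPM in shCtrl-OGDR to 51.6, 42.5 and 40.0 CPM in shAnxa2-CTRL. Rpl7l1, a ribosomal protein paralog, rose by 0.45. Rpl39 and Rpl22l1 read 0.45 and -0.56, and each lost its call in an alternative. Subunits of the proteasome, which degrades tagged proteins, rose at 23 of 34 (67.6%) and fell at 1 (2.9%), with a median of 0.21. All lay within 1.5-fold by their intervals, beside 74% of all genes. Psmd6, a lid subunit, had 149, 153 and 167 CPM against 111, 115 and 117 CPM, and Psmd11, another lid subunit, 371, 359 and 366 CPM against 269, 279 and 276 CPM. Their shAnxa2-CTRL libraries were all higher (log2 0.46 and 0.41), and the catalytic subunit Psmb5 rose by 0.35.

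**Figure D4:**
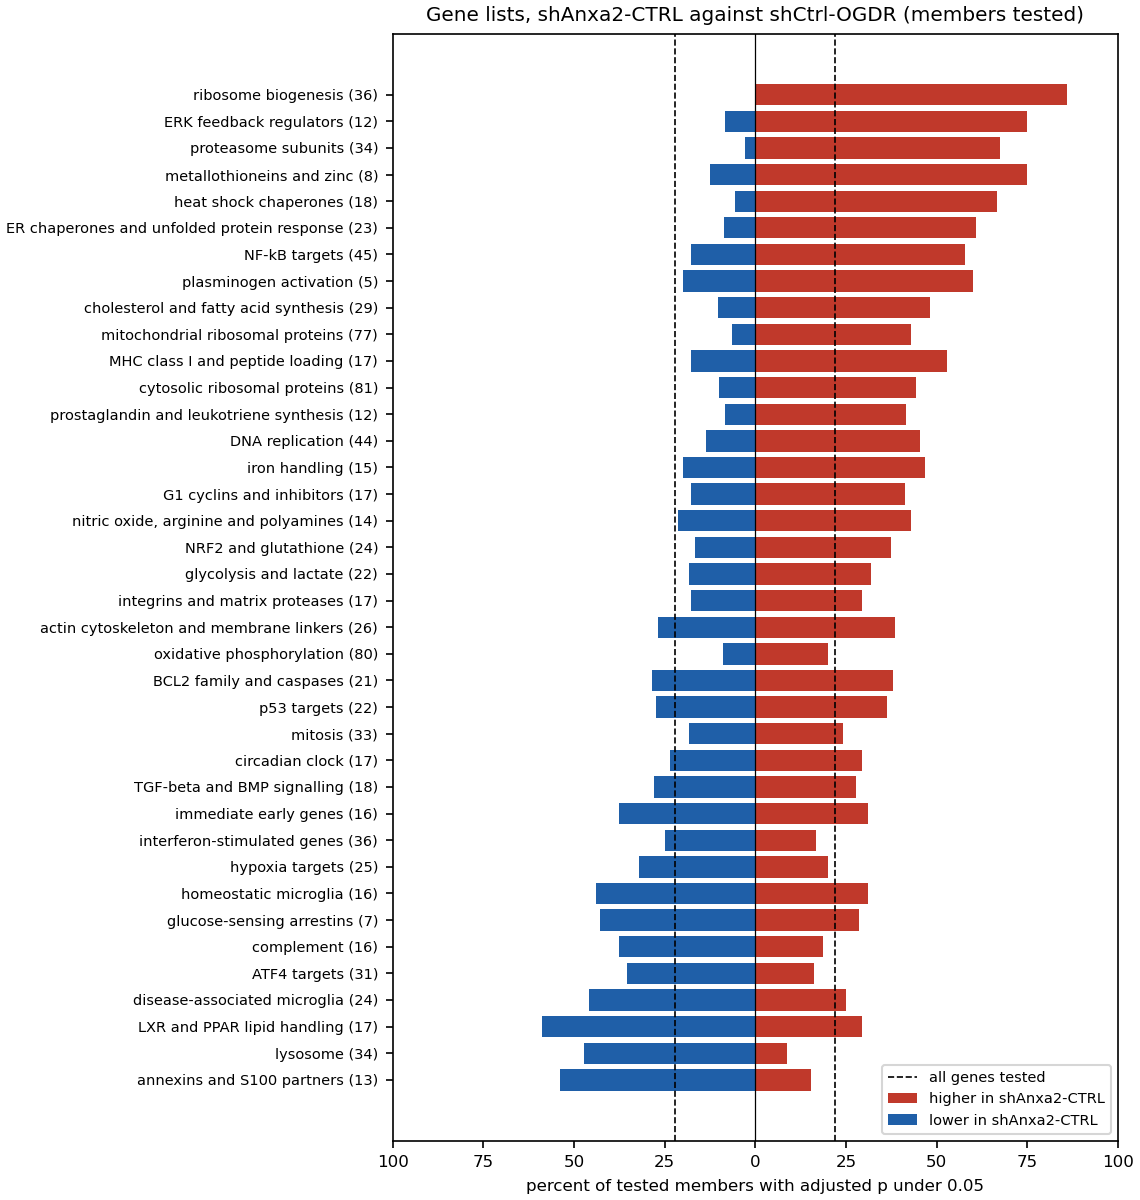
For each gene list (number of tested members in parentheses) the bars give the percent of members higher (red, to the right) and lower (blue, to the left) in shAnxa2-CTRL at an adjusted p under 0.05, and dashed lines mark the shares over all 11626 genes, 22.1% and 22%. Ribosome biogenesis stands at the top and the annexins at the bottom.

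Protein folding genes leaned the same way. Of the 23 tested ER chaperones and unfolded protein response genes 14 rose (60.9%) and 2 fell (8.7%), beside 22.1% and 22% of all genes. Their median was 0.16. Hyou1, an ER chaperone induced by low oxygen, read 832, 809 and 907 CPM against 586, 611 and 569 CPM, and Calr, the calcium-binding chaperone calreticulin, 1756, 1640 and 1686 CPM against 1087, 1267 and 1234 CPM. No library of 1 group reached the range of the other for either gene (log2 0.53 and 0.50, adjusted p = 3.65e-09 and 2.38e-08). Edem1, which sends misfolded glycoproteins to degradation, fell by 0.52. Heat shock chaperones rose at 12 of 18 and fell at 1 (median 0.18), with Hspa4l, an HSP70 relative, at 0.39 and Dnajb1, an HSP40 cochaperone, at 0.31, while Hsf1, the factor that induces them, read 19.1, 14.9 and 20.6 CPM against 27.9, 21.8 and 22.4 CPM (log2 -0.40). The targets of ATF4, the factor of the integrated stress response, leaned the other way. Of 31, 11 were lower (35.5%) and 5 higher (16.1%), with a median of -0.12. Nupr1, a stress-induced chromatin protein, had 12.7, 12.8 and 14.2 CPM in shAnxa2-CTRL against 33.8, 27.0 and 30.0 CPM in shCtrl-OGDR (log2 -1.19, SE 0.11, adjusted p = 3.49e-09). Pycr1, of proline synthesis, fell by 0.89.

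Genes that low oxygen or low glucose is known to move did not share a direction. Among 25 tested hypoxia targets 5 rose (20%) and 8 fell (32%), beside 22.1% and 22% of all genes. Of their intervals 76% lay within 1.5-fold, beside 74% of all genes, and the median of -0.06 was -0.004 without replicate 2 of shCtrl-OGDR, where 5 fell. Egln3, a HIF prolyl hydroxylase that HIF induces, was low at 0.440, 0.433 and 0.596 CPM in shAnxa2-CTRL and 1.02, 1.53 and 1.74 CPM in shCtrl-OGDR (log2 -1.50, SE 0.34, adjusted p = 0.000819). Ndrg1, a stress-induced gene, had 49.0, 49.7 and 47.8 CPM against 63.6, 78.7 and 74.3 CPM (log2 -0.56, adjusted p = 5.66e-06). Of the 22 glycolysis and lactate genes 7 rose, 4 fell and 20 lay within 1.5-fold (median -0.02). The lactate carriers Slc16a3 and Slc16a1 rose by 0.46 and 0.35, and Eno2, the neuronal enolase, fell by 0.59. Glucose-sensing arrestins rose at 2 of 7 and fell at 3, with a median of -0.09 that was -0.17 without replicate 3 of shAnxa2-CTRL. Txnip, whose transcript follows glucose, had 232, 239 and 243 CPM against 286, 309 and 295 CPM and fell by 0.32, and Arrdc4, a glucose-responsive arrestin, by 0.40. Among 80 genes of oxidative phosphorylation 16 rose (20%) and 7 fell (8.8%), beside 22.1% and 22% of all genes. Only 9 rose without replicate 3 of shAnxa2-CTRL. Of their intervals 72 lay within 1.5-fold (90%, beside 74% of all genes), and the median was 0.07. Cox6a2, a muscle form of a cytochrome c oxidase subunit whose gene overlaps Itgad, fell by 1.88 at under 6 CPM.

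Metal and redox genes included single large differences. Tfrc, the transferrin receptor for iron uptake, had 476, 517 and 473 CPM in shAnxa2-CTRL and 267, 289 and 259 CPM in shCtrl-OGDR, and Ftl1, the ferritin light chain for iron storage, 805, 723 and 795 CPM against 1186, 1139 and 1079 CPM. The groups were separate for both, higher in the knockdown for Tfrc (log2 0.85, adjusted p = 1.67e-11) and lower for Ftl1 (log2 -0.55, adjusted p = 4.66e-08). In the iron list 7 of 15 rose (46.7%) and 3 fell (20%), beside 22.1% and 22% of all genes. The median was 0.16, or 0.082 without replicate 2 of shCtrl-OGDR. Of 8 genes of metallothioneins and zinc 6 rose and 1 fell (median 0.23). Mt1, a metal-binding metallothionein, rose by 0.59, and Slc39a14, a zinc and iron importer, by 0.65. Slc30a2, a zinc exporter, rested on 2 to 5 counts per library in shAnxa2-CTRL and 12 to 27 in shCtrl-OGDR (log2 -2.10, SE 0.58, adjusted p = 0.00516). Genes of NRF2 and glutathione rose at 9 of 24 (37.5%) and fell at 4 (16.7%), with a median of 0.07. Me1, a malic enzyme that makes NADPH, had 65.4, 59.2 and 60.3 CPM against 33.2, 30.3 and 29.4 CPM, nearly 2-fold higher in each library (log2 0.99, adjusted p = 9.4e-12). Cholesterol and fatty acid synthesis genes rose at 14 of 29 and fell at 3 (median 0.13, or 0.051 without replicate 3 of shAnxa2-CTRL). Insig1, the ER protein that holds back the sterol factor SREBP, had 109, 119 and 120 CPM against 270, 262 and 252 CPM (log2 -1.17, SE 0.05, adjusted p = 2.24e-14). Hsd17b7, an enzyme of cholesterol synthesis, and Elovl6, a fatty acid elongase, rose by 0.67 and 0.58.

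Interferon-stimulated genes showed no common direction, with 6 of 36 higher (16.7%), 9 lower (25%) and a median of -0.01. Over all genes 22.1% were higher and 22% lower. Usp18, which limits interferon signaling, read 11.4, 10.7 and 13.4 CPM in shAnxa2-CTRL and 6.65, 6.26 and 7.38 CPM in shCtrl-OGDR (log2 0.82, adjusted p = 3.13e-06), and Trim30a, a TRIM family protein, 7.29, 7.56 and 6.71 CPM against 12.3, 14.9 and 13.8 CPM (log2 -0.93, adjusted p = 1.08e-07). These 2 genes moved apart in all libraries. Genes of MHC class I and peptide loading rose at 9 of 17 and fell at 3 (median 0.14), with Psmb10, an immunoproteasome subunit, at 0.40 and B2m, the class I light chain, at -0.38. Integrins and matrix proteases rose at 5 of 17 (29.4%) and fell at 3 (17.6%), near the shares of all genes. Their median was 0.07, or 0.029 without replicate 1 of shCtrl-OGDR. Itga6, a laminin receptor chain, had 25.8, 23.8 and 22.6 CPM against 49.6, 53.3 and 55.6 CPM, less than the control line in every library (log2 -1.13, adjusted p = 8.19e-12), and Itgb3, a vitronectin receptor chain, rose by 1.33 at under 3 CPM. Among actin cytoskeleton and membrane linker genes 10 of 26 rose and 7 fell (median 0.09, or 0.041 without replicate 1 of shCtrl-OGDR). Ezr, the linker ezrin, had 120, 112 and 128 CPM against 73.1, 76.5 and 86.0 CPM and rose by 0.62 (its gene overlaps Sytl3), and Lsp1, an actin-binding protein of leukocytes that overlaps Prr33, fell by 0.89. Signaling by TGF-β and BMP had 5 of 18 up and 5 down (27.8% each), near the shares of all genes. Its median was -0.13, or -0.073 without replicate 2 of shAnxa2-CTRL. Bmper, a secreted BMP regulator, rose by 2.27 from about 0.5 CPM, and Smad3, a TGF-β effector, fell by 0.53. Circadian clock genes rose at 5 of 17 (29.4%) and fell at 4 (23.5%), near the shares of all genes. Only 2 rose without replicate 1 of shCtrl-OGDR. The median was -0.10, or -0.055 without replicate 1 of shAnxa2-CTRL. Dbp, a clock output factor whose gene overlaps Sphk2, had 6.99, 6.11 and 5.36 CPM against 12.8, 11.5 and 13.3 CPM (log2 -1.03, adjusted p = 1.27e-06), and Cry1, a clock repressor, rose by 0.48. Libraries were not strand-specific as far as the sources say, so reads of overlapping genes cannot be told apart. Besides those named above this holds for Bax, Bid, B2m, Ccnd1, Ccne2, Evl, Ipcef1, Nop56, Pet100, Plk3, Slc16a3 and Tbxas1.

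The genes with the largest differences of all were mostly low. Wnt10a, a secreted WNT ligand, had 6.75, 8.81 and 8.78 CPM in shAnxa2-CTRL and 0.587, 0.802 and 1.13 CPM in shCtrl-OGDR, 9.9-fold apart (log2 3.31, SE 0.22, adjusted p = 1.66e-11). Ablim1, an actin-binding LIM protein, read 11.4, 14.4 and 12.5 CPM against 1.21, 2.10 and 1.49 CPM (log2 2.98, adjusted p = 1.47e-12), and Trem1, a receptor that amplifies inflammation, 5.48, 4.24 and 5.08 CPM against 0.587, 0.840 and 0.615 CPM (log2 2.84, adjusted p = 7.41e-11). All 3 were far above the control libraries. Trem1 was at 6.22 CPM in shCtrl-CTRL and 13.9 CPM in shAnxa2-OGDR, so shCtrl-OGDR was the group that stood apart. The remaining genes named for a rise were Tnni3k, a cardiac kinase (2.52), Enthd1 (2.29), Abcb1a, a drug exporter (2.27), and Cxxc5, a CXXC zinc finger protein (2.27).

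On the other side, Slc47a1, an exporter of organic cations, had 1.52, 1.16 and 2.03 CPM in shAnxa2-CTRL and 10.2, 8.86 and 8.30 CPM in shCtrl-OGDR (log2 -2.52, SE 0.23, adjusted p = 3.67e-09). Pde3b, a phosphodiesterase of cyclic nucleotides, was at 0.587, 0.529 and 0.794 CPM against 3.44, 3.97 and 3.54 CPM (log2 -2.49, adjusted p = 6.86e-09). Ets1, an ETS transcription factor, had 8, 19 and 6 counts against 74, 65 and 58 counts (log2 -2.46, adjusted p = 1.12e-06). Each was lower in all 3 shAnxa2-CTRL libraries. Hrc, a calcium-binding protein (-2.41), Capn2, a calcium-dependent protease (-2.29), Jsrp1, a muscle junction protein (-2.28), and Evl, a regulator of actin filaments (-2.24), were also named, each at under 2 CPM in the shAnxa2-CTRL libraries.

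The other crossed pair, shAnxa2-OGDR against shCtrl-CTRL, shares no library with the present one and differs in the same line while its treatment titles are exchanged. There 4639 genes (39.9%) were called. Called in both pairs were 2861 genes, which is 55.8% of the calls in the present pair and 61.7% of those in the other. Of these, 2708 (94.7%) had the same direction and 153 (5.3%) the opposite one. Over all genes tested these were 23.3% and 1.32%. Over all 11626 genes, the 2 sets of log2 differences correlated with a Pearson r of 0.630 and a Spearman rho of 0.577, across genes that are not independent replicates. Of the 175 genes at least 2-fold higher in shAnxa2-CTRL, 94 were called higher in shAnxa2-OGDR and 2 lower, and of the 174 at least 2-fold lower, 111 were called lower and none higher. Thus 79 and 63 of these genes were not called in the other pair, which does not show that they did not differ there.

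Among genes with the same direction in both pairs, Anxa2 differed by -2.79 in the present pair and -3.13 in the other, C1qb by -2.59 and -2.26, Pde3b by -2.49 and -2.71, and Ets1 by -2.46 and -2.49. Cxcl2 differed by 3.20 and 3.91, Wnt10a by 3.31 and 2.68, Ablim1 by 2.98 and 2.32, and Tnni3k by 2.52 and 2.38. Sult1c2, a sulfotransferase, and Cyp11a1, the enzyme that starts steroid synthesis, differed by 2.18 and 2.71 and by 2.10 and 2.55. Of the NF-κB targets 35 were higher and 1 lower in the other pair, and 23 were higher in both. Of the LXR and PPAR genes 9 were lower in both. Some lists went differently in the other pair, without a test of the difference. ER chaperones had 3 higher and 9 lower there, heat shock chaperones 3 and 6, and cholesterol and fatty acid synthesis 2 and 7. ATF4 targets had 9 higher and 4 lower, and ERK feedback regulators 5 and 3 with a median of -0.00. Over all genes, that pair called 21.5% higher and 18.4% lower. Calr, Tfrc, Ccne2 and Nupr1, called here, differed there by -0.05, 0.06, -0.07 and -0.26, none of them called.

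**Figure D5:**
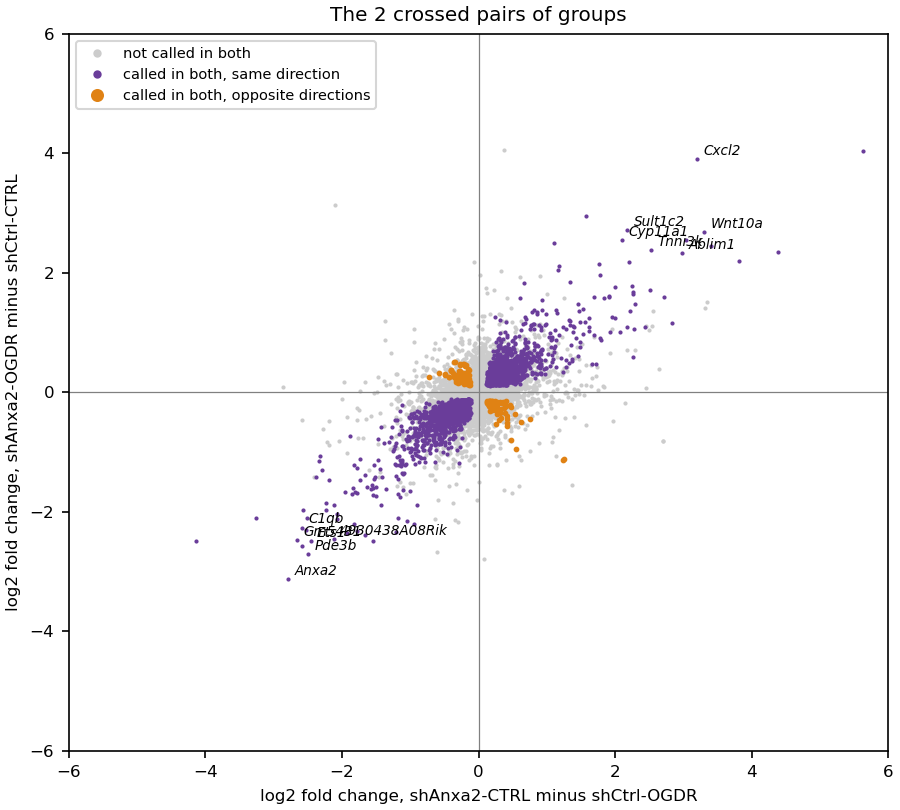
Each point is 1 of the 11626 genes, with its log2 fold change in the present pair (x axis, shAnxa2-CTRL minus shCtrl-OGDR) and in the other crossed pair (y axis, shAnxa2-OGDR minus shCtrl-CTRL). Purple genes were called in both pairs in the same direction (2708), orange genes in opposite directions (153), and gray genes were not called in both.

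The genes named for opposite directions each differed by less than 2-fold in both pairs. Csf3r, the receptor of granulocyte colony-stimulating factor, had 29.8, 31.2 and 31.7 CPM in shAnxa2-CTRL and 40.1, 43.4 and 38.6 CPM in shCtrl-OGDR (log2 -0.40, adjusted p = 6.89e-05), and differed by 0.37 in the other pair. Tmem176a, a membrane protein of myeloid cells whose gene overlaps Tmem176b, read 68.6, 63.1 and 64.7 CPM against 81.8, 82.6 and 86.9 CPM (log2 -0.36, adjusted p = 1.99e-05), with 0.51 in the other pair. Slc31a2, a copper transporter, had 80.1, 82.8 and 77.8 CPM against 108, 103 and 106 CPM (log2 -0.40, adjusted p = 6.39e-06), with 0.37. The libraries of these genes did not overlap, and shCtrl-OGDR was the highest of the 4 groups for each of them. Relb, at -0.34 and 0.51, N4bp2l1, at -0.58 and 0.33, and Cyb561a3, a cytochrome b561 family member at -0.40 and 0.36 that overlaps Tmem138 and Tkfc, completed the genes named for this direction. In the reverse direction, Dmwd stood at 0.62 and -0.50 and Fos at 0.54 and -0.95. Fos, Pet100, Rgs14 and Ipcef1 lost their calls in some alternatives. Rpl9-ps6 is a pseudogene with near-identical copies, so its counts are uncertain.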

How the data were processed

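RNA-seq counts of 12 BV2 libraries were used, 3 per group, grouped by sample title. The deposited counts are whole numbers of reads per gene, without normalization, made by the authors; the submitters' processing notes name HISAT2 2.0.4 and the build mm39, and the counting program is not given in the sources used here. The 12 per-sample columns of size-factor-scaled counts beside them were not used. Of 21834 genes, 5636 had no count in any library, and replicates differed by more than counting error. Total counts of 19521877 to 27288843 set the precision.

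Genes with at least 0.5 CPM in at least 3 libraries (11626) were fitted with edgeR 4.0.16 (R 4.3.3) by a quasi-likelihood model of 4 group means with TMM factors and Benjamini-Hochberg adjustment. Intervals are 95%. CPM in the text are TMM-scaled, except those of cell type markers, which use library totals. The same steps were also run on simulated counts with 1 common spread for all genes and far fewer changed genes than were called here. That run therefore cannot vouch for the calls in these data. The members and gene lists were chosen with earlier results of these data known, and no list was tested as a set. Of a name listed under several identifiers, the one with most counts was read. Named genes are Anxa2 and genes the paper names for BV2 cells, the 10 largest differences per direction (mean of at least 1 CPM, no overlap between libraries, no predicted names), up to 3 members per list, and the 6 per direction with the largest smaller difference over the 2 crossed pairs. The list members C3, Cfp, S100a10, Cd83 and Anxa1 to Anxa11 and the markers Kdr and Cdh5 are outside this rule and were named after their values were seen. A few genes that meet the rule are not reported here. Alternatives were median-of-ratios factors, library totals, no filter or 1 CPM, the 6 libraries alone, a replicate block, DESeq2 1.42.0, voom of limma 3.58.1, other call rules and leaving out each library. Plots used Python 3.11.15 and matplotlib 3.10.9.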

Additional observations from a re-analysis of the deposited data

How the results depend on the processing

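The number of genes called was 5126 and stayed between 5027 and 5230 with other scaling factors, filters, DESeq2, voom or the 6 libraries alone, and between 4365 and 5320 when 1 library was left out. With glmTreat, which tests for differences beyond 1.5-fold, 291 genes were called. Genes of opposite direction in the crossed pairs numbered 153, and 91 to 159 when 1 library was left out, with 91 without replicate 1 of shCtrl-OGDR. With the replicate number as a block, 5105 genes were called. Libraries of the same number in the 2 groups had correlations of -0.051 to -0.001 in their deviations from group means. Those of different numbers ran from -0.013 to 0.041. With 3 libraries per group this cannot show whether replicates were handled in pairs. Of 2912 values of 146 named genes over 20 alternatives, 2858 kept their direction and call, 54 lost the call in 16 genes (Ankrd37, Cdkn1c, Cox7a1, Egr3, Fcrls, Fos, Gbp2, Ipcef1, Nfkb1, Per2, Pet100, Plgrkt, Rgs14, Rpl22l1, Rpl39 and Tmsb10), and none changed direction. When 1 library was left out, the medians of 18 of the 38 gene lists moved by over 1.5 times, and 6 of these, all near 0 as reported, changed sign (BCL2 family and caspases, glycolysis and lactate, homeostatic microglia, immediate early genes, interferon-stimulated genes and mitosis). Of 53 list counts of at least 5 called members, 13 moved by over 1.5 times.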
